A study of Mus musculus with 8 samples.

Results

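The cells described here were 311 Ctla4 and Icos activated and regulatory T cells (TCs) of mouse dorsal skin, out of 11118 cells that passed the filter on cell quality and 26231 barcodes in all. They were chosen by measured transcripts: a member carried at least 1 UMI (1 counted transcript molecule) of at least 2 of the 5 T cell genes Cd3e, Cd3d, Cd3g, Trac and Trbc2, no UMI of the gamma-delta receptor gene Trdc, and at least 1 UMI of at least 2 of the 6 panel genes Ctla4, Icos, Tnfrsf4, Foxp3, Ikzf2 and Tigit. Members made up 2.80% of the cells that passed. The same files held 514 other alpha-beta TCs, which met the T cell rule and had UMIs of fewer than 2 panel genes, and 323 gamma-delta TCs, which had a Trdc UMI.

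The libraries were 10x single-cell RNA-seq of viable cells sorted after enzymatic dissociation of 4 mm biopsies of dorsal skin from female BALB/c mice aged 14 to 16 weeks. The 4 PBMCsec libraries came from skin injected subcutaneously with PBMCsec, the secretome of irradiated human peripheral blood mononuclear cells, and the 4 vehicle libraries from skin injected with vehicle. The labels give neither the vehicle solution nor whether the skin had been wounded, so libraries within a group may differ in both. No genetic alteration was listed in either group. The labels number the libraries 1 to 4 in each group and do not say that each came from a separate mouse, so p-values measure the spread between these libraries. Members numbered 187 in PBMCsec libraries (52, 37, 57 and 41 in libraries 1 to 4) and 124 in vehicle libraries (24, 33, 42 and 25).

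Regulatory T cells (Tregs) are CD4 T cells that express the transcription factor Foxp3 and restrain immune responses. In skin they are known to reside near hair follicles, to carry high Ctla4, Icos and Gata3, and to take part in tissue repair. Activated helper T cells share several of their surface molecules: Icos and OX40 (Tnfrsf4) deliver co-stimulation after antigen contact, Ctla4 competes with Cd28 for its ligands, and type 2 helper cells secrete Il4, Il5 and Il13 under the control of Gata3.

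Before the results, some libraries stood apart. The total depth of the libraries ran from 14753926 UMIs (vehicle 1) to 37880651 UMIs (PBMCsec 4). Members had a median of 3679 UMIs (range 950 to 18880), and the library medians were 5152, 5793, 2935 and 3237 in PBMCsec 1 to 4 and 4751.5, 5368, 1861 and 3207 in vehicle 1 to 4. Libraries 1 and 2 of both groups were thus deeper per member than libraries 3 and 4. Treatment differences in shares and in Calca, Ramp3, Isg15 and Il13 are therefore also given within libraries 1 and 2 and within libraries 3 and 4. Members of vehicle 3 held 7618 CPM (counts scaled to the UMI total of the members of a library) of a 14-gene KC (keratinocyte) list, against 425 to 627 in the other vehicle libraries and 702, 539, 1371 and 1287 in PBMCsec 1 to 4. They also held 2896 CPM of a 10-gene FB (fibroblast) list, against 54.5 to 99.2 in the other vehicle libraries and 73.2 to 229 in PBMCsec libraries. Over the members of all 8 libraries Lgals7 led the KC list with 34.7% of its UMIs and Col3a1 led the FB list with 21.5%, and no gene of either list was at 0. Members of PBMCsec 3 held 8127 CPM of 5 red blood cell genes, led by Hbb-bs, against 18.6 to 276 in the other PBMCsec libraries. The part of free RNA or of mixed barcodes in these values was not tested. Counts of called genes and differences in shares are given with all libraries, without vehicle 3 and without PBMCsec 3.

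UMIs of other lineages were common at low levels: 61.7% of members and 58.2% of other alpha-beta TCs held at least 2 marker genes of another cell type. Of other immune and vascular cells several defining genes were at 0 in members, while other genes of the same lists were present. Of 18 macrophage and dendritic cell genes C1qc, Adgre1 and Fcgr3 were at 0, and Cst3 held 55.6% of the 851 UMIs of the list, with 212 to 491 CPM over the libraries. Of 9 mast cell and basophil genes Tpsb2, Fcer1a, Ms4a2 and Mcpt8 were at 0, and 247 of 267 UMIs were Hdc, the histamine-forming enzyme, which ran from 0 to 341 CPM over the libraries. The B and plasma cell genes Cd79a and Jchain were at 0, but Ighm was seen in all 8 libraries (9.45 to 102 CPM) and held 67.8% of the 143 UMIs of its list. Of 7 neutrophil genes S100a8, Retnlg, Csf3r and Ly6g were at 0, with 7 UMIs in all, and of 9 endothelial and mural genes Cdh5, Kdr and Lyve1 were at 0, while 67 of 81 UMIs were Pecam1. No barcode was shared between members of any 2 libraries, and no pair of libraries shared more than 10 of its barcodes.

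The rule genes describe the members, and no test of them is given. Icos (1:60977927-61000320, plus strand, GRCm38) had a UMI in 86.8% of members (95% Clopper-Pearson interval 82.5 to 90.4), its neighbour Ctla4 (1:60887000-60915832, plus strand) in 70.4% (65.0 to 75.4), Tnfrsf4 in 76.2% (71.1 to 80.8) and Ikzf2, which encodes the Treg factor Helios, in 46.0% (40.3 to 51.7). Foxp3 (X:7573644-7595245, plus strand) had a UMI in 81 members, 26% (21.3 to 31.3), and Tigit in 12, 3.86% (2.01 to 6.64). Intervals here cover counting error only. The same shares in KCs, which lack T cell genes and were deeper with a median of 8513.5 UMIs, were 0.105% for Icos, 0.505% for Ctla4 and 0.0421% for Foxp3, but 13.5% for Tnfrsf4 and 25.9% for Ikzf2. In FBs (median 7017 UMIs) the Ikzf2 share was 9.52%. A UMI of Tnfrsf4 or Ikzf2 was thus seen more often in KCs than one of Icos, Ctla4 or Foxp3.

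Levels of the panel genes were higher in members by the same rule. Mean Ctla4 over the 8 libraries was 937 CPM in members and 16.6 CPM in other alpha-beta TCs, and mean Icos was 838 against 183 CPM. Mean Tnfrsf4 was 624 against 28.6 CPM, mean Ikzf2 was 785 against 87.5 CPM and mean Foxp3 was 147 against 1.62 CPM. These differences follow from the rule.

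**Figure D1:**
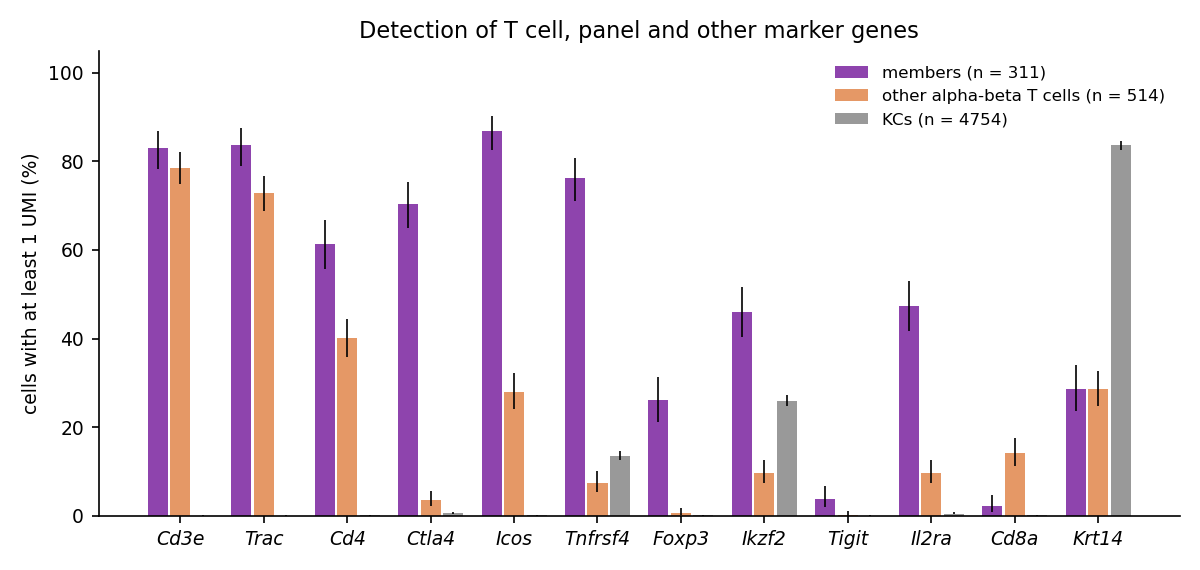
Share of cells (%) with at least 1 UMI of each gene in members, other alpha-beta TCs and KCs, with bars for the share and lines for 95% Clopper-Pearson intervals. Foxp3 was seen in 26% of members and 0.0421% of KCs, while Ikzf2 was seen in 46.0% of members and 25.9% of KCs.

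The label was checked against markers that the rule did not use. Cd4 had a UMI in 61.4% of members (55.8 to 66.9), against 40.1% of other alpha-beta TCs and 0.0631% of KCs. Cd4 without a Cd8 gene was found in 180 members, Cd8a or Cd8b1 without Cd4 in 7, both in 11 and neither in 113. Il2ra, the high-affinity chain of the interleukin-2 receptor, had a UMI in 47.3% of members and 9.73% of other alpha-beta TCs, and Cd28 in 65.6% and 50%. Outside the rule the label thus rests on Cd4 without a Cd8 gene in 180 of 311 members and on Il2ra in fewer, and the activated state of the rest rests on the rule genes themselves. A Foxp3 UMI was seen in 81, and cells without one can still express the gene.

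The panel threshold ran through a continuous range. Exactly 2 panel genes were seen in 134 members, 3 in 78, 4 in 39, 5 in 56 and 6 in 4, while 254 other alpha-beta TCs had 1 and 260 had none. Just inside the threshold (2 genes) Cd4 had a UMI in 57.5% and Il2ra in 29.9% of cells, and just outside (1 gene) in 38.6% and 12.6%. Cd8a went from 12.2% just outside to 3.73% just inside. Within the members the share with an Il2ra UMI was 29.9%, 44.9%, 66.7% and 76.8% at 2, 3, 4 and 5 panel genes. The share with an Itgae UMI, the CD103 integrin that holds T cells in epithelia, was 15.7%, 29.5%, 46.2% and 80.4% over the same classes. Cxcr6, a chemokine receptor of tissue-resident T cells, ran the other way with 63.4%, 59.0%, 35.9% and 17.9%. Of the 56 members with 5 panel genes, 54 had a Foxp3 UMI, against 3 of the 134 members with 2. As Foxp3 is itself 1 of the 6 panel genes, these classes and Foxp3 are not separate measures.

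The first comparison asked how members differed from the other alpha-beta TCs of the same libraries in genes outside the rule. The receptor genes Tnfrsf9 (4-1BB), Il2ra and Tnfrsf18 (GITR) were higher in members by 1.72 to 3.99 on the log2 scale. Il13, Gata3 and the interleukin-33 receptor Il1rl1 were higher as well. Cytotoxic and CD8 genes were lower, among them Ccl5, Ctsw and Cd8a. With edgeR's quasi-likelihood test on counts summed per library and class, with library as a block and Benjamini-Hochberg adjustment, 479 of 3237 genes (14.8%) passed an adjusted p of 0.05. Of these 296 (9.14%) were higher in members and 183 (5.65%) lower, and the median log2 fold change of all genes tested was -0.05. Without PBMCsec 1 the count was 310 (218 higher, 92 lower), without vehicle 3 it was 430 and without PBMCsec 3 it was 379. Median depth was 3679 UMIs in members and 3109 in other alpha-beta TCs.

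Among Treg-associated genes 12 of 16 tested were higher in members and none lower, with a median log2 fold change of 1.22. The list was drawn up with earlier results of these data known. Tnfrsf9, a co-stimulatory receptor of activated Tregs, ran from 60.9 CPM over a median of 143 to 503 CPM in members and from 0 over 10.4 to 22.4 CPM in other alpha-beta TCs. The classes did not overlap in any of the 8 libraries, and the log2 fold change was 3.99 (SE 0.38, adjusted p = 1.76e-06). Il2ra ran from 145 over 259 to 551 CPM in members and from 15.3 over 41.8 to 84.8 CPM in the others, again with no overlap (log2 fold change 2.75, SE 0.30, adjusted p = 6.92e-06). Areg, the repair factor amphiregulin, was far more variable, from 52.8 over 318 to 2747 CPM in members, and was higher in 7 of 8 libraries (3.75, SE 0.69, adjusted p = 0.0011). Il1rl1 had a log2 fold change of 2.29, Tnfrsf18 of 1.72 and the activation factor Batf of 2.0. Itgae (log2 fold change -0.25, adjusted p = 0.466) and the actin-capping gene Capg (0.06, adjusted p = 0.854) did not pass.

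Co-stimulation, checkpoint and activation genes moved alike: 16 of 22 were higher and 1, the adhesion receptor Cd96, lower, with a median log2 fold change of 1.17. The lists share genes, so their counts are not separate. Tnfrsf9 and Tnfrsf18 are on this list and the Treg-associated list. Gata3 and Maf are on the Treg-associated and helper lists, and Il2ra, Il2rg and Il1rl1 on the Treg-associated and cytokine receptor lists. Cd200r1, an inhibitory receptor, had a mean of 120.1 CPM in members and 36.9 CPM in the others (log2 fold change 1.81, SE 0.26). Pdcd1, which encodes PD-1, had a mean of 99.1 against 30.3 CPM (1.75, SE 0.28). The activation markers Cd44 (0.36, adjusted p = 0.0761) and Cd69 (0.59, adjusted p = 0.156) did not pass. Of the 23 dissociation stress genes 22 were tested, of which 4 were higher (Nfkbia, Junb, Dusp1 and Zfp36) and 3 lower (Jun, Egr1 and Hspb1). Egr1 lost its call without PBMCsec 1, PBMCsec 2, vehicle 1 or vehicle 3 (edgeR adjusted p = 0.0525 to 0.0792, log2 fold change -1.33 to -1.10). Nfkbia, an inhibitor of NF-kappaB induced by its activity, was the clearest, from 1104 to 3326 CPM in members and 244 to 898 CPM in the others (1.92, SE 0.25).

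Of helper cytokine and transcription factor genes 6 of 10 were higher and none lower (median 0.98). Gata3 ran from 477 over 883 to 1254 CPM in members and from 168 over 243 to 382 CPM in the others, without overlap (1.81, SE 0.21, adjusted p = 1.47e-05). Gata3 UMIs were also present in 51.2% of KCs. Maf, a factor of helper and regulatory cells, was higher by 1.53 and Rora by 1.23. Il13 was higher in members in 8 of 8 libraries, though the ranges overlapped, with 21.1 over 239 to 1015 CPM in members and 0 over 18.7 to 113 CPM in the others (3.16, SE 0.49, adjusted p = 0.000237). Runx3, a factor of cytotoxic and resident cells, had a log2 fold change of -0.12 (adjusted p = 0.833).

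Cytotoxic genes were the reverse. Of 7 tested 6 were lower in members (Ccl5, Cd8a, Cd8b1, Ctsw, Klrk1 and Nkg7) and 1, the granule protease Gzmb, higher (list median -2.08). Ctsw, a cathepsin of cytotoxic cells, ran from 0 over 37.4 to 126 CPM in members and 202 over 261 to 622 CPM in the others (-2.86, SE 0.33, adjusted p = 1.47e-05). Ccl5 was lower in members in every library (-3.35, SE 0.38), but PBMCsec 3 members held 1008 CPM against at most 69.0 CPM in the other 7 libraries. Itga1, the CD49a chain of resident CD8 T cells, ran from 0 to 26.2 CPM in members and 73.6 to 134 CPM in the others (-3.37, SE 0.39). Of naive and memory genes 2 of 9 were lower, Tcf7 (-1.49) and Foxp1 (-0.73), and none higher.

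Receptors for cytokines and chemokines were mixed. Of 16 cytokine receptors 5 were higher (Il2ra, Il2rg, Il1rl1, Ifnar1 and Ifngr1) and 1, Il18r1, lower (median 0.38), while the interleukin-7 receptor Il7r was at 0.18 (adjusted p = 0.477). Of 15 chemokine receptor, homing and residency genes 3 were higher (Cxcr4, Ccr2 and Itgb7) and 2 lower (Cxcr3 and Itga1), and Cxcr6 was at 0.02 (adjusted p = 0.975). Of 14 interferon-stimulated genes Ifi27l2a (1.57) and Isg15 (1.48) were higher and Ifi47 (-0.83) lower. Leaving out 1 library ended 3 of these calls. The edgeR adjusted p was 0.0587 for Ccr2 without PBMCsec 1 (log2 fold change 0.53) and 0.0538 for Cxcr3 without PBMCsec 2 (-0.89). For Ifi47 it was 0.0769 to 0.145 without PBMCsec 2, PBMCsec 3 or vehicle 2 (-0.79 to -0.62). None of 7 proliferation genes passed (median 0.35). Of 2 genes of the gamma-delta and innate lymphoid list Calca was higher (2.80, SE 0.53, adjusted p = 0.00123) and Cd7 lower (-2.80, SE 0.26).

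Markers of KCs moved with this comparison. Of 6 KC markers tested 5 were lower in members (median -1.96), and the summed 14-gene KC list was 975 CPM in PBMCsec and 2296 CPM in vehicle members against 4686 and 3499 CPM in the other alpha-beta TCs. Without vehicle 3 the vehicle means were 522 and 1729 CPM, so that in members the vehicle mean lay above the PBMCsec mean through that library alone. Hspb1 and Sfn, both abundant in KCs, had log2 fold changes of -2.38 and -1.90. Their part in the difference was not tested. Macrophage and dendritic cell genes gave 1 tested gene, Cst3 (-0.14, adjusted p = 0.781), and B cell genes 1, Ighm (0.73, adjusted p = 0.272). Genes of FBs, mast cells, neutrophils, endothelium and red blood cells were too low to be tested. Without PBMCsec 3 the mean of the summed FB list in PBMCsec libraries was 135 CPM in members and 1237 CPM in other alpha-beta TCs. Without vehicle 3 the means in vehicle libraries were 74.1 and 121 CPM. The part of FB transcripts in the difference was not tested.

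**Figure D2:**
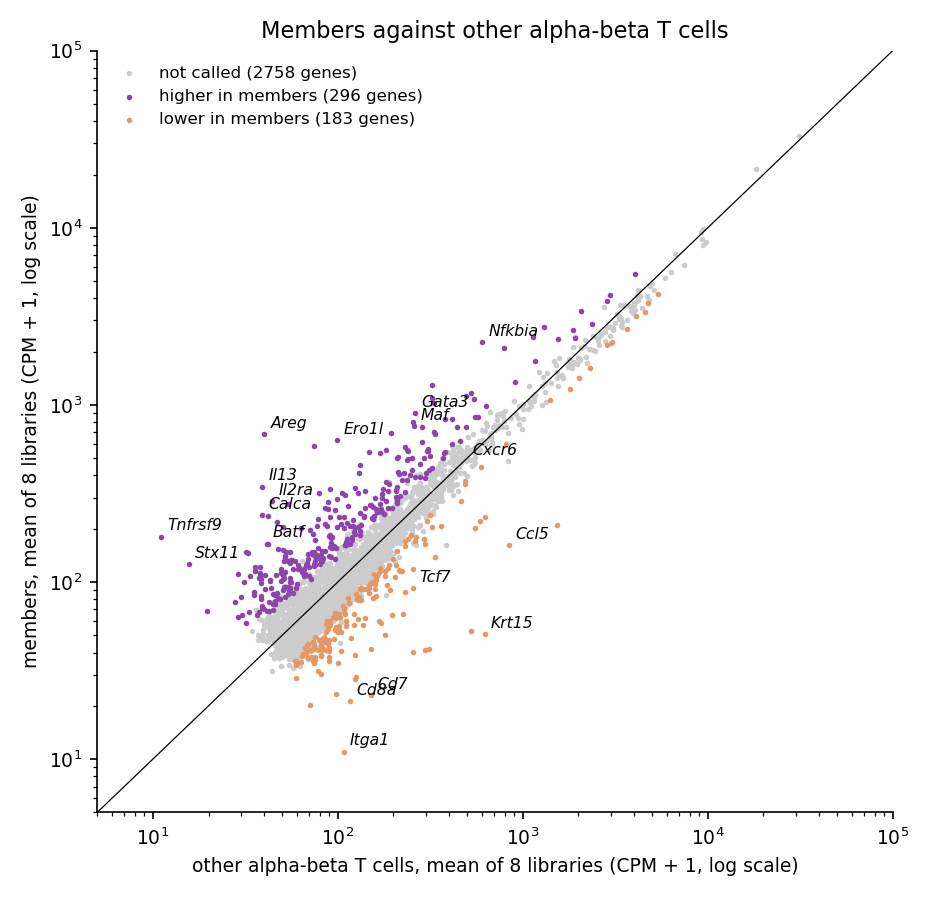
Mean CPM plus 1 of each tested gene outside the rule over the 8 libraries, in other alpha-beta TCs (x axis) and members (y axis), both on log scales, with genes that passed an adjusted p of 0.05 coloured. Tnfrsf9, Il13 and Il2ra lie above the diagonal and Ccl5, Cd8a and Itga1 below it.

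Against gamma-delta TCs, with vehicle 1 left out because it held 3 such cells, 588 of 2613 genes (22.5%) passed, 336 (12.9%) higher and 252 (9.64%) lower in members. The count was 526 without vehicle 3 and 436 without PBMCsec 3. Cd4 ran from 182 to 755 CPM in members and 0 to 42.3 CPM in gamma-delta TCs (log2 fold change 5.07, SE 0.33). Cd200r1 (5.39), the CD40 ligand gene Cd40lg (4.86), Ifi27l2a (4.75) and the T cell surface receptor gene Cd6 (4.26) were also higher. Tcrg-C1, a gamma chain constant gene, ran from 0 to 23.9 CPM in members and 247 to 1027 CPM in gamma-delta TCs (-6.13, SE 0.31). Fermt2 (-6.79), the chemokine gene Xcl1 (-6.78), the receptor gamma chain gene Fcer1g (-6.50) and 5830411N06Rik (-5.98) were also lower. None of these 10 genes overlapped between the classes in the 7 libraries.

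The gene lists were counted against gamma-delta TCs as well. Of Treg-associated genes 9 of 15 were higher and 3 (Capg, Il2rb and Itgae) lower, and of co-stimulation genes 13 of 19 were higher and 1, Cd96, lower. All 7 tested gamma-delta and innate lymphoid genes and 6 of 8 cytotoxic genes were lower in members. Of 12 chemokine receptor and residency genes 1, Itgb1, was higher and 5 (Ccr6, Cxcr6, Itgae, Itgb7 and Selplg) lower. The median log2 fold change of all genes tested was -0.02.

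Among the members Foxp3 was not seen together with Il13 or Calca. A Foxp3 UMI was seen in 81 members and an Il13 or Calca UMI in 66, and no member had Foxp3 with either. The remaining 164 had none of the 3 genes. Il13 was seen in 50 members and Calca (7:114631478-114636357, minus strand), which encodes the neuropeptide CGRP, in 40, with 24 members having both. Ramp3, a subunit of receptors for CGRP-family peptides, was seen in 83 of 230 members without Foxp3 and in 4 of 81 with it.

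The second comparison asked how the 81 members with a Foxp3 UMI differed from the 230 without, whose median depths were 3577 and 3690 UMIs. Members with Foxp3 had higher Itgae, Tnfrsf9, Il2ra and Tnfrsf18 and lower Cxcr6, Furin and Itgb1. With library as a block, edgeR called 51 of 852 genes (5.99%), 26 (3.05%) higher and 25 (2.93%) lower with Foxp3, and the median of all genes tested was 0.04. The count depended on single libraries: it was 28 without PBMCsec 1, 30 without PBMCsec 3, 32 without vehicle 1 and 86 without vehicle 4, and 46 without vehicle 3. It was 23 without the library block. Without cells holding markers of another lineage it was 4, of which 3 were among the 51. That fit also left out PBMCsec 2, PBMCsec 3, PBMCsec 4 and vehicle 3. DESeq2 called 34 higher and 65 lower, a share of 34.3% higher against 51.0% in edgeR, with a median of all genes of 0.38.

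Itgae ran from 265 over 455 to 732 CPM in members with Foxp3 and from 42.8 over 76.8 to 212 CPM in those without. The ranges did not overlap and the log2 fold change was 2.26 (SE 0.25, adjusted p = 6.61e-05). By detection 69.1% of members with Foxp3 (57.9 to 78.9) and 23.0% of those without (17.8 to 29.0) had an Itgae UMI, and after every cell was thinned to 1500 UMIs the shares were 43.4% and 13.6%. Arl5a, a small GTPase gene, was higher in 8 of 8 libraries (2.0, SE 0.23), as were Cmtm7 (1.18), Fam129a (1.11), Wnk1 (0.99), Tmpo (0.96), Rora (0.96) and Cdc42se2 (0.91).

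Treg receptors followed. Tnfrsf9 ran from 43.1 over 311 to 2135 CPM with Foxp3 and from 0 over 36.1 to 271 CPM without, and was higher in 7 of 8 libraries, the exception being vehicle 3 (2.82, SE 0.53, adjusted p = 0.00436). Il2ra (1.05, adjusted p = 0.00806) and Tnfrsf18 (0.91, adjusted p = 0.0211) were also higher in 7 of 8. Of 14 Treg-associated genes these 3 and Itgae were the 4 higher, none was lower, and the list median was 0.39. Tnfrsf18 lost its call without PBMCsec 2, PBMCsec 3, PBMCsec 4 or vehicle 1, with edgeR adjusted p of 0.0543 to 0.0632 and log2 fold changes of 0.78 to 0.85. Gata3 (-0.87, adjusted p = 0.143) and Maf (-0.08, adjusted p = 0.854) did not pass. Klrg1, an inhibitory receptor of differentiated T cells that was too low for the test, had a UMI in 35.8% of members with Foxp3 (25.4 to 47.2) and 13.5% without (9.34 to 18.6). Gzmb had one in 30.9% (21.1 to 42.1) and 9.13% (5.74 to 13.6), but its level did not pass (log2 fold change 0.86, adjusted p = 0.561, higher in 5 of 8 libraries).

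Cxcr6 ran from 0 over 86.9 to 226 CPM with Foxp3 and from 364 over 632 to 968 CPM without, with no overlap (-2.62, SE 0.37, adjusted p = 0.000433). Its UMI share was 17.3% against 61.7%, and 13.2% against 41.6% after thinning. Furin, a protein convertase, was lower in 8 of 8 libraries, with 0 to 301 CPM against 273 to 719.6 CPM (-2.72, SE 0.39, adjusted p = 0.000433). Btg2 (-2.01), the integrin Itgb1 (-1.93), Bhlhe40, a factor of cytokine-secreting helper cells (-1.71), Neurl3 (-1.60) and Vps37b (-1.18) were lower in 8 of 8 libraries as well. Of 8 chemokine receptor and residency genes Itgae was higher and Cxcr6 and Itgb1 lower, and of 16 stress genes none was higher and Btg2 and Jund were lower (median -0.63). Leaving out 1 library ended the calls of Tmpo (edgeR adjusted p = 0.0739 without PBMCsec 1 and 0.0507 without vehicle 1), Cdc42se2 (0.0606 without PBMCsec 2 and 0.0553 without vehicle 3), Vps37b (0.0702 without PBMCsec 3, 0.0572 without PBMCsec 4 and 0.0576 without vehicle 1) and Jund (0.0509 to 0.0905 without any PBMCsec library or vehicle 3). In these fits the log2 fold changes were 0.83 to 0.91 for Tmpo, 0.72 to 0.87 for Cdc42se2, -1.16 to -1.07 for Vps37b and -0.84 to -0.72 for Jund.

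Type 2 cytokine UMIs were seen in members without a Foxp3 UMI. Il4 had a UMI in 44, Il13 in 50, Il5 in 33 and Calca in 40 of the 230 members without Foxp3, and each in 0 of 81 with it, which allows a share of cells with a UMI of up to 3.70% and does not bound the share that express the gene. Cd40lg was seen in 40.0% of members without Foxp3 (33.6 to 46.6) and 9.88% with it (4.36 to 18.5). In KCs Il4, Il13, Il5 and Cd40lg were seen in at most 0.105% of cells. Areg was seen on both sides, in 33.3% with and 17.8% without Foxp3, and its level did not pass (log2 fold change 0.38, adjusted p = 0.798). Il1rl1 was likewise on both sides, with 54.3% and 37.4% of members and a log2 fold change of 0.19 (adjusted p = 0.726).

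**Figure D3:**
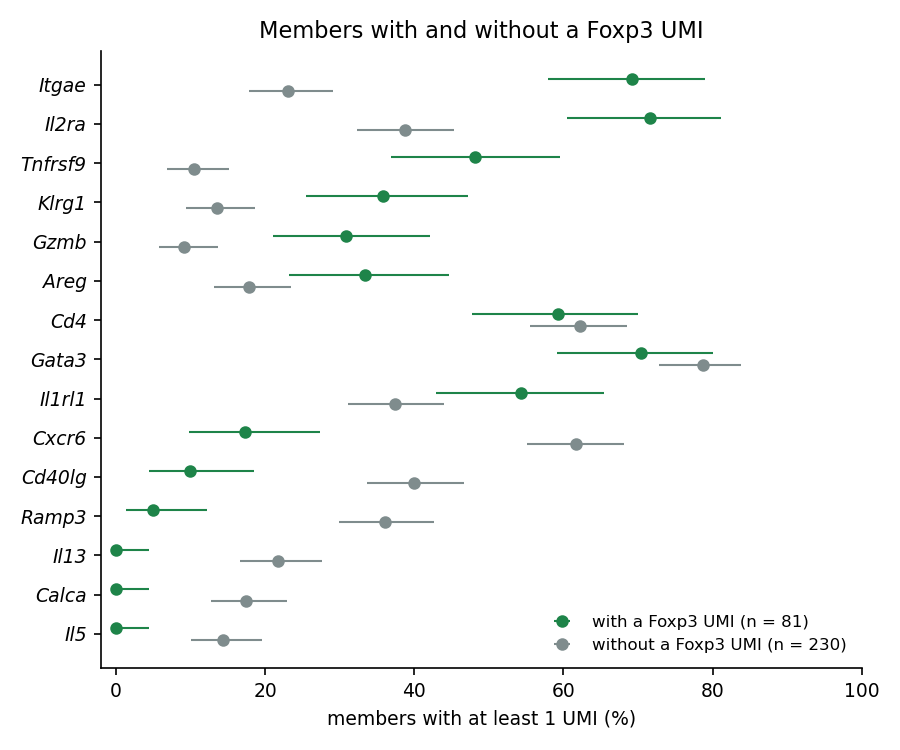
Share of members (%) with at least 1 UMI of each gene among the 81 members with a Foxp3 UMI and the 230 without, with 95% Clopper-Pearson intervals. Itgae was seen in 69.1% against 23.0% and Cxcr6 in 17.3% against 61.7%, and Il13 and Calca in no member with Foxp3.

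Of the 40 members with a Calca UMI, 25 (62.5%) had Cd4, near the 61.4% of all members, 38 (95%) had Gata3 against 76.5% of all members, 24 (60%) had Il1rl1 against 41.8%, and 24 had Ramp3, against 87 of all 311 members. Their median depth was 5116 UMIs against 3679 in all members, and detection rises with depth. Kit was seen in 1 of them. At least 3 of the 5 T cell genes, which the rule used, were seen in 90% of them and in 92.9% of all members. Of the 50 members with Il13, 38 (76%) had Cd4 and 49 (98%) had Gata3, and their median depth was 8258 UMIs. Members held 61.3% of all Calca UMIs and 60.9% of all Il13 UMIs of the cells that passed, although they were 2.80% of those cells. Other alpha-beta TCs held 69 Calca and 81 Il13 UMIs, in 14 and 18 of 514 cells, and gamma-delta TCs 46 and 25 UMIs, in 22 and 12 of 323 cells. KCs held 18 Calca UMIs in 8 of 4754 cells, and FBs held none. The remaining 2999 cells, outside the TC, KC and FB classes, held 120 Calca UMIs (18.4% of all) in 25 cells and 303 Il13 UMIs (27.9%) in 37 cells.

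The third comparison asked whether members differed between PBMCsec and vehicle. In number they did not differ beyond the spread of the libraries. Members were 4.81%, 6.99%, 2.25% and 2.56% of cells that passed in PBMCsec 1 to 4 and 7.55%, 8.07%, 1.45% and 1.43% in vehicle 1 to 4. Both groups were high in libraries 1 and 2 and low in 3 and 4. The means were 4.16% ± 2.21 (SD, n = 4) and 4.62% ± 3.68 (n = 4), a difference of -0.469 percentage points (exact two-sided permutation test, p = 0.886). The difference was -1.90 within libraries 1 and 2 and 0.966 within libraries 3 and 4, and it was -1.53 without vehicle 3 and 0.167 without PBMCsec 3.

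Members were 38.9% ± 5.04 of alpha-beta TCs in PBMCsec and 38.2% ± 10.3 in vehicle libraries (n = 4 each, difference 0.659, exact permutation p = 0.914). The library values were 44.4%, 39.4%, 32.2% and 39.4% in PBMCsec and 32.9%, 53.2%, 36.2% and 30.5% in vehicle, and they overlapped. Without vehicle 3 the difference was -0.00529 and without PBMCsec 3 it was 2.88. It was -1.15 within libraries 1 and 2 and 2.47 within libraries 3 and 4. A Foxp3 UMI was seen in 36.5%, 21.6%, 17.5% and 19.5% of members in PBMCsec 1 to 4 and in 25.0%, 21.2%, 31.0% and 40.0% in vehicle 1 to 4. The means of 23.8% ± 8.65 and 29.3% ± 8.19 differed by -5.49 percentage points (n = 4 each), but by 5.97 within libraries 1 and 2 and by -16.9 within libraries 3 and 4. As Foxp3 is a gene of the rule, this share is a description, and without vehicle 3 and PBMCsec 3 the difference was -4.93 and -3.40. The p of both other shares, adjusted over the 3 shares compared, was 0.914, and the smallest p that 4 against 4 libraries allow is 0.0286.

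**Figure D4:**
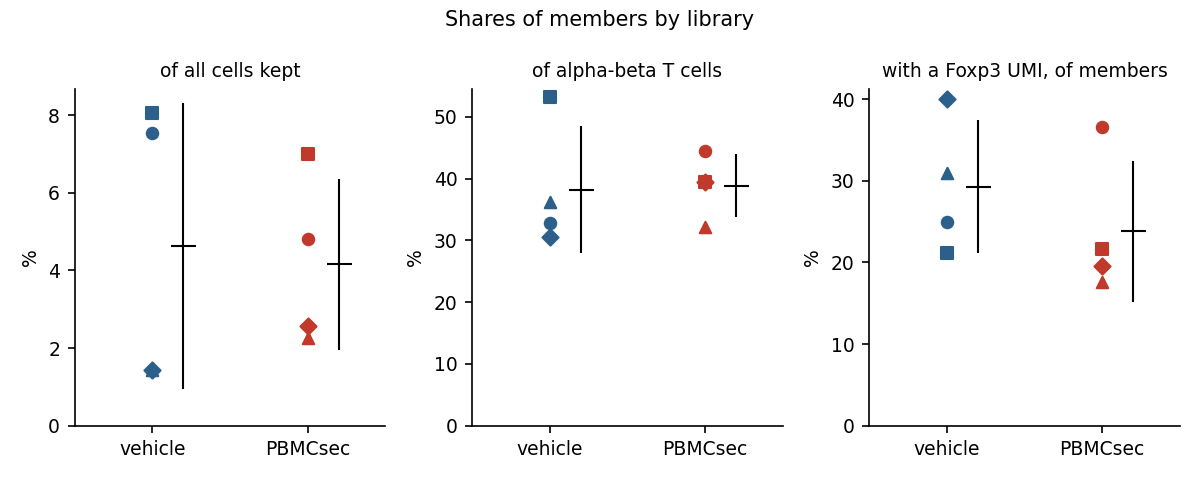
Members as a share (%) of all cells that passed, members as a share of alpha-beta TCs, and members with a Foxp3 UMI as a share of members, by library, with circle, square, triangle and diamond for libraries 1 to 4 and lines for the mean ± SD of 4 libraries. The PBMCsec and vehicle values overlapped in all 3 panels.

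In expression, edgeR without a block called 0 of 2619 genes (0%) between PBMCsec and vehicle members, with 87 higher and 64 lower before adjustment (p under 0.05) and a smallest adjusted p of 0.161. DESeq2 also called 0 of 13400 (0%). Equal-numbered libraries of the groups deviated together, a pairing taken from these data and not from the labels. With the library number as a block edgeR called 9 genes (0.344%), all higher in PBMCsec. They were Calca, Neurl3, Isg15, Ier3, Ramp3, Il13, Fth1, Vps37b and Nop58. Without vehicle 3 and without PBMCsec 3 the fit without a block called 0, and with the block it called 4 (Calca, Neurl3, Isg15 and Plac8, the last named after its value was seen) and 3 (Calca, Neurl3 and Isg15). The calls of Ramp3, Il13, Ier3, Fth1, Vps37b and Nop58 with the block were lost without either of these libraries, each of which also takes a pair out of the test. With the block the log2 fold change of Ramp3 went from 2.03 to 1.44 without PBMCsec 3 and 1.46 without vehicle 3, and that of Fth1 from 0.97 to 1.06 and 1.08. Those of Il13, Ier3, Vps37b and Nop58 were 1.23 to 1.68 with all libraries and 0.98 to 1.49 without either library. Ramp3, Il13, Ier3 and Nop58 also lost their calls without PBMCsec 1 (edgeR adjusted p = 0.0798 to 0.351). Ramp3, Il13 and Ier3 lost theirs without vehicle 1 (edgeR adjusted p = 0.0531 to 0.269). Nop58 lost its call without PBMCsec 2 or vehicle 2 (edgeR adjusted p = 0.0932 to 0.104). In these fits the log2 fold change was 2.28 to 2.29 for Ramp3, 1.44 to 1.45 for Il13, 1.51 for Ier3 and 1.49 to 1.98 for Nop58. With the block, edgeR's adjusted p was 0.0667 for Calca and 0.0775 for Neurl3 without PBMCsec 1, and 0.0639 to 0.111 for Isg15 without library 1 or 2 of either group. The block gave 3 calls without PBMCsec 1, of which Vps37b and Fth1 were among the 9, 19 without PBMCsec 2 or vehicle 2, 20 without PBMCsec 4 and 21 without vehicle 4. Without PBMCsec 4 the fit without a block called 3, Isg15, Ramp3 and Map3k8, and Map3k8 is named here after its value was seen. CPM of the groups did not overlap for 86 genes (3.28%), of which 45 (1.72%) were higher in PBMCsec.

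Calca had the largest log2 fold change of the 9 genes. Members held 529, 187, 563 and 312 CPM in PBMCsec 1 to 4 and 109, 9.45, 25.4 and 153 CPM in vehicle 1 to 4. The lowest PBMCsec library lay above the highest vehicle library. The means were 398 ± 179 and 74.4 ± 68.5 CPM (SD, n = 4), with a log2 fold change of 2.58 (SE 0.55, edgeR adjusted p = 0.161) without and 2.61 (adjusted p = 0.00809) with the block. A Calca UMI was seen in 9, 5, 10 and 11 members in PBMCsec 1 to 4 and in 1, 1, 2 and 1 in vehicle 1 to 4, so the vehicle values rest on 5 cells. PBMCsec exceeded vehicle by 299 CPM within libraries 1 and 2 and by 348 CPM within libraries 3 and 4.

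Ramp3 (11:6658521-6677475, plus strand) held 338, 287, 620.2 and 159 CPM in PBMCsec 1 to 4 and 125, 75.6, 25.4 and 98.7 CPM in vehicle 1 to 4. The UMIs behind these values were 106, 72, 120 and 23 against 16, 16, 3 and 9. The groups did not overlap, and the log2 fold change was 2.12 (SE 0.43, adjusted p = 0.161) without and 2.03 (adjusted p = 0.0328) with the block. PBMCsec exceeded vehicle by 212 CPM within libraries 1 and 2 and by 328 CPM within libraries 3 and 4. Isg15, an interferon-induced ubiquitin-like protein (4:156199424-156200818, minus strand), held 239, 259, 98.2 and 76.1 CPM against 46.8, 37.8, 33.9 and 43.8 CPM. These were 75, 65, 19 and 11 UMIs against 6, 8, 4 and 4, so the vehicle values rest on few UMIs. Libraries 1 and 2 of PBMCsec were the highest, and the excess over vehicle was 207 CPM within libraries 1 and 2 and 48.3 CPM within 3 and 4 (2.09, SE 0.44, adjusted p = 0.161 without and 0.0129 with the block).

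Il13 (11:53631324-53634702, minus strand) held 995, 597, 222 and 215 CPM in PBMCsec 1 to 4 and 265, 397, 42.3 and 21.9 CPM in vehicle 1 to 4. The UMIs behind these values were 312, 150, 43 and 31 against 34, 84, 5 and 2. The groups overlapped, libraries 1 and 2 were the highest in both, and each PBMCsec library exceeded the vehicle library of its number. The choice of Il13 from the fit with the block favours that agreement. The excess of the means was 465 CPM within libraries 1 and 2 and 186 CPM within libraries 3 and 4. The log2 fold change was 1.4 (SE 0.59, adjusted p = 0.851) without and 1.6 (adjusted p = 0.0337) with the block. Il5, secreted with Il13 by type 2 cells, held 405, 362, 181 and 34.6 CPM against 670.2, 255, 0 and 0 CPM, a log2 fold change of 0.08 (adjusted p = 0.994). Gata3 was at 0.09 (adjusted p = 0.99).

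The other called genes were Nop58, Fth1, Neurl3, Ier3 and Vps37b. Nop58, a ribosome assembly factor, held 140.3, 108, 212 and 145 CPM against 70.1, 18.9, 42.3 and 65.8 CPM without overlap (1.70, adjusted p = 0.308 without and 0.0378 with the block). Its UMIs were 44, 27, 41 and 21 against 9, 4, 5 and 6, so its vehicle values rest on few UMIs. Fth1, the iron-storing ferritin heavy chain, had means of 4700 ± 748 and 2523 ± 927 CPM (n = 4 each) without overlap (0.90, adjusted p = 0.636 and 0.0353). Neurl3, a ubiquitin ligase gene, held 443, 207, 915 and 581 CPM against 125, 37.8, 389 and 252 CPM and overlapped (1.47, adjusted p = 0.851 and 0.00809), as did Ier3 (1.34, adjusted p = 0.851 and 0.0244) and Vps37b (1.25, adjusted p = 0.627 and 0.0366). In each of these genes the PBMCsec library exceeded the vehicle library of its number in all 4 pairs. Their choice from the fit with the block favours such agreement, so it adds no support.

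Genes of smallest unadjusted p that were called in neither fit are given as values. Gpr183, an oxysterol receptor that guides lymphocytes, had means of 163 ± 14.0 and 70.2 ± 24.6 CPM without overlap (1.23, adjusted p = 0.432 without and 0.121 with the block). Lower in PBMCsec without overlap were March2 (-1.15), Far1 (-1.47), Cyfip1 (-1.33), Angel2 (-1.07) and Lrrc8c (-1.22), with adjusted p from 0.432 to 0.73. These genes held 2 to 23 UMIs in each PBMCsec library and 7 to 26 in each vehicle library. March2 had means of 53.0 ± 4.35 and 118 ± 10.8 CPM (n = 4 each).

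No gene of any list was called without the block. The median log2 fold change was 0.03 over 21 Treg-associated genes, 0.25 over 23 co-stimulation genes and 0.42 over 14 helper genes, of which 13 were positive, against -0.03 over all 2619 genes. It was 0.16 over 16 cytokine receptors, 0.06 over 12 chemokine receptor and residency genes, 0.17 over 6 naive and memory genes, 0.27 over 6 proliferation genes and -0.12 over 11 interferon-stimulated genes. Stress genes had a median of 0.37 with 19 of 21 positive, and their summed level was 18894 ± 3199 CPM in PBMCsec and 14622 ± 2519 CPM in vehicle members (n = 4 each). The mean of this list was thus higher in PBMCsec, but the list itself was not tested, nor was its part in the differences above. Ier3, called with the block, is itself a gene of this list and had its largest log2 fold change (1.34). Il2rg, the common chain of interleukin receptors, held 450.2 to 507 CPM in PBMCsec and 285 to 383 CPM in vehicle members (0.50, adjusted p = 0.851).

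Markers of other cells were set beside these values. Of the 9 mast cell and basophil genes Hdc alone was tested, with 341, 259, 77.5 and 0 CPM in PBMCsec and 15.6, 265, 16.9 and 0 CPM in vehicle members (0.98, adjusted p = 0.975). Lgals7 of KCs (-0.21), Cst3 of macrophages and dendritic cells (-0.23) and Ighm of B cells (-0.10) had adjusted p of 0.98 to 0.99. When members without a Foxp3 UMI were fitted alone, no gene was called with or without the block, and when members had to carry 3 T cell genes 17 were called with the block. Both alternatives were chosen after seeing the data.

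**Figure D5:**
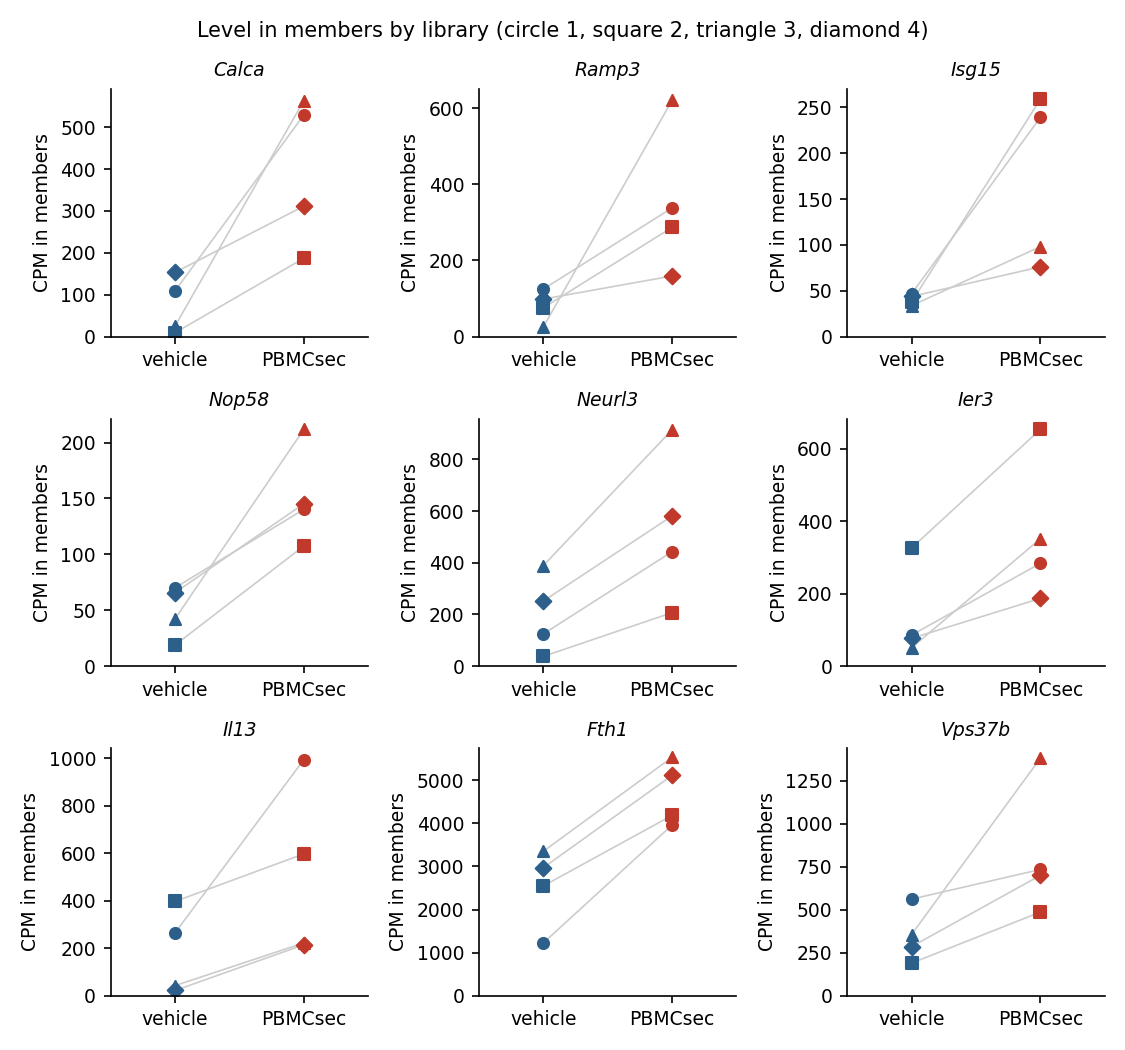
CPM in members by library for genes higher in PBMCsec with the library number as a block, in vehicle and PBMCsec libraries, with grey lines joining libraries of equal number. Calca, Ramp3 and Isg15 did not overlap between the groups, whereas Il13 did.

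Whether the PBMCsec difference was particular to members was tested by the interaction of treatment and class against the other alpha-beta TCs. edgeR called 0 of 4171 genes (0%), with 168 positive and 99 negative before adjustment (p under 0.05), and DESeq2 called 1, Fth1. Without vehicle 3 and without PBMCsec 3 edgeR called 0 as well. For Calca the interaction was 2.71 on the log2 scale (SE 0.99, adjusted p = 0.559), with means in the other alpha-beta TCs of 31.8 CPM in PBMCsec and 43.6 CPM in vehicle libraries. For Ramp3 it was 2.06 (adjusted p = 0.253) with 46.9 and 44.2 CPM, for Isg15 1.14 (adjusted p = 0.774) with 46.4 and 25.98 CPM, and for Il13 1.52 (adjusted p = 0.901) with 35.2 and 39.8 CPM. The smallest p of the 9 genes was that of Nop58 (1.73, SE 0.35, adjusted p = 0.0784), followed by Neurl3 (1.81, adjusted p = 0.167), Fth1 (0.84, adjusted p = 0.200), Vps37b (1.64, adjusted p = 0.217) and, after Ramp3, Calca, Isg15 and Il13, Ier3 (1.02, adjusted p = 0.947). All 9 were positive, a sign that their choice as higher in PBMCsec members favours. In edgeR no difference between the classes passed with all libraries, and without vehicle 2, vehicle 4 or PBMCsec 4 the fit called 8, 6 and 3 genes. The interaction was not fitted with the library number as a block.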

How the data were processed

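Single-cell gene counts, as deposited by the authors, are UMI counts per gene and barcode from 10x libraries. The submitters' processing notes name Cell Ranger 3.0.2 and the mm10 build. The tables held 31053 genes. A barcode passed with no fewer than 500 and no more than 4000 genes, a UMI total up to 20000 and a mitochondrial share up to 10% (the study's stricter limit of 5% was an alternative). No doublet caller was used. Every gene named had coordinates in the GENCODE M21 annotation of GRCm38, matched by Ensembl ID, where a position is given.

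KCs were cells with at least 3 of Krt5, Krt14, Krt1, Krt10, Dsp, Perp and Sfn and FBs cells with at least 3 of Col1a1, Col1a2, Col3a1, Dcn, Lum and Sparc, both with no UMI of the 5 T cell genes. Counts were summed per library and class, with at least 10 cells per class in a library (5 for the Foxp3 comparison). They were tested with edgeR 4.0.16 in R 4.3.3 (TMM, filterByExpr, quasi-likelihood test, two-sided) and adjusted by Benjamini-Hochberg over all genes tested. DESeq2 1.42.0 was an alternative. CPM were scaled by TMM and by the share of UMIs in tested genes. Summed lists were divided by all UMIs of the class. Genes of the rule and 8 abundant keratin and collagen genes that the study left out were not counted. Shares were compared by exact permutation over 70 labellings of the libraries. The Foxp3 share was tested in the same way, but its p is not given, since the rule used Foxp3. For intervals 95% Clopper-Pearson limits were used, and a count of 0 allows up to 3 counts.

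Members and gene lists were chosen with earlier results of these data known. Genes named were the largest called changes with the same sign in every library and at least 50 CPM, called and most abundant genes of each list, and, for treatment, the 5 of smallest unadjusted p in each direction. Some list genes that did not pass are given only in counts. Other genes were taken from the markers of the cell types.

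Deviations from the group means correlated at 0.190 to 0.374 in the 4 pairs of equal library number and at -0.348 to 0.166 in the other 12, so equal numbers were treated as pairs, from the data. The fits were tested on simulated data. Thinning to 1500 UMIs left out 4 PBMCsec and 10 vehicle members. The title under which the data were deposited concerns mast cells and basophils, whereas the paper that lists the data describes scars analysed at more than 1 time after treatment. The labels give neither wounding nor time, so time was not analysed here. Values of a few genes that the rule would name are not reported here.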

Additional observations from a re-analysis of the deposited data

Results flagged for a closer look

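Of 58 groups of 4 libraries examined, 8 had 1 library far from its nearest neighbour relative to the range of the group (Dixon's ratio above its 95% critical value). Chance flags about 1 in 20 groups. Among the genes named for the treatment comparison, March2 was at 46.5 CPM in PBMCsec 3 against 54.2 to 55.8 CPM in the other PBMCsec libraries, the fatty alcohol-forming reductase gene Far1 was at 194.8 CPM in vehicle 1 against 76.7 to 93.1 CPM in the other vehicle libraries, and Ier3 was at 326 CPM in vehicle 2 against 50.8 to 85.7 CPM.

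The other 5 concern marker genes of other cells in members. In vehicle 3 the KC list was at 7618 CPM against 425 to 627 CPM in the other vehicle libraries, and the FB list at 2896 CPM against 54.5 to 99.2 CPM. The red blood cell genes were at 8127 CPM in PBMCsec 3 against 18.6 to 276 CPM in the other PBMCsec libraries, and at 54.5 CPM in vehicle 4 against 0 in the other vehicle libraries. The neutrophil list was at 0 CPM in vehicle 4 against 8.23 to 9.15 CPM. Members of vehicle 1 to 4 held 120962, 218594, 121553 and 91704 UMIs in all, so both flags of vehicle 4 rest on a few UMIs. The part of these cell types in any difference was not tested.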

How the results depend on the processing

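The labels do not say that libraries of equal number are pairs, and they were treated as such from the data. With this replicate block the 0 calls between PBMCsec and vehicle members became 9. The block gave 17 calls among members with at least 3 T cell genes and 3 with the 5% mitochondrial limit, and with 1 library left out it gave 3, 19, 3 and 20 without PBMCsec 1 to 4 and 9, 19, 4 and 21 without vehicle 1 to 4, all these combinations chosen after seeing the data. Without the block, no filter on low counts gave 68 calls and leaving out cells with markers of another lineage 3 (Calca, Ramp3 and Ifrd1), and leaving out 1 library gave 0 to 3. For the share of all cells and of alpha-beta TCs, a test within pairs gave exact permutation p of 0.75 and 1.0 (smallest possible 0.125). Neither share changed its call in that test. The fits between classes had the library itself as a block.

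The 479 calls against other alpha-beta TCs became 946 with no filter, 266 with the 5% limit, 179 without cells of mixed lineage and 165 after thinning, and 310 to 473 with 1 library left out. The 588 calls against gamma-delta TCs became 1182, 372 and 190 under the first 3 of these, and 431 to 638 with 1 library left out. In this comparison the 5% limit also left out vehicle 2, so the 372 calls reflect both changes. The 51 calls for Foxp3 became 23 without the library block, 99 in DESeq2, 295 with no filter, 32 with the 5% limit and 4 without cells of mixed lineage, and 28 to 86 with 1 library left out. The interaction gave 1 call in DESeq2, 103 with no filter, 1 without cells of mixed lineage, and 0 to 8 with 1 library left out. The lineage alternative left out PBMCsec 4 and vehicle 3 in the fits against other alpha-beta TCs and between treatments, and 4 libraries in the other class fits.

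The difference in the share of all cells was 0.0946 after thinning and -1.53 to 0.680 with 1 library left out. Leaving out cells with at least 2 marker genes of another cell type also removed all KCs and FBs from the cells counted. Members were then 16.4% of the cells left in PBMCsec and 20.5% in vehicle libraries. The difference of -4.05 (exact permutation p = 0.20) is thus of another share than the one above. For the share of alpha-beta TCs the difference was -11.7 without cells of mixed lineage (exact permutation p = 0.114) and -1.91 to 5.67 with 1 library left out. For the Foxp3 share it was 0.248 without cells of mixed lineage, -12.2 in members with 3 panel genes and -9.73 to -1.92 with 1 library left out.

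Genes whose log2 fold change turned sign were not called. Between treatments Ifi27l2a was at -0.17 with the block (without 1 library as well -0.740, -0.083 and -0.017 for PBMCsec 1, 2 and 4 and -0.737, -0.087 and -0.016 for vehicle 1, 2 and 4), -0.063, -0.13 and -0.18 with the block in Foxp3-negative members, members with 3 T cell genes and under the 5% limit, -0.026 under that limit alone, -0.58 without cells of mixed lineage and -0.48 to 0.26 with 1 library left out. Il5 was at -0.024 in Foxp3-negative members, -0.073 under the 5% limit and -0.29 to 1.29 with 1 library left out. Nkg7 was at -0.33 and Ifi203 at 0.040 without cells of mixed lineage, Ifi203 at 0.038 with no filter, Gata3 at -0.23 and -0.21 with the block without PBMCsec 3 and vehicle 3, Gata3 at -0.079 to 0.32 and Maf at -0.44 to 0.013 with 1 library left out. Against other alpha-beta TCs Capg was at -0.038 with 3 T cell genes, -0.085 under the 5% limit, -0.22 without cells of mixed lineage, -0.052 after thinning and -0.039 to 0.18 with 1 library left out. Cxcr6 was at -0.011 without the block, -0.16 with 3 T cell genes, -0.15 under the 5% limit, -0.15 after thinning and -0.12 to 0.18 with 1 library left out. Il7r was at -0.078 with 3 T cell genes, Itgae at 0.14 and Hmgb2 at -0.24 without cells of mixed lineage, and Runx3 at -0.44 to 0.050 with 1 library left out. For Foxp3, Il7r was at -0.25 with no filter and -0.028 to 0.31 with 1 library left out. The cause of these changes was not tested.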
